A study of Drosophila melanogaster with 12 samples.

Results

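The 35 cytosolic glutathione S-transferase (GST) genes of the Drosophila wing disc data were taken by name from the 17753 genes of the count table, as every symbol that starts with Gst, a class letter (D, E, O, S, T or Z) and a number. No measured value entered that choice. The class letters stand for delta (11 genes), epsilon (14), omega (3), sigma (1), theta (4) and zeta (2).

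GSTs join the tripeptide glutathione to reactive, mostly oily compounds, which makes these compounds soluble and lets the cell export them. Many also clear the products of lipid peroxidation, and in insects the delta and epsilon classes are best known for detoxifying insecticides and plant compounds. In flies and mammals, several GST genes are transcriptional targets of the Nrf2 factor (CncC in Drosophila), which its inhibitor Keap1 releases under oxidative or electrophilic stress, so GST transcripts such as GstD1 are widely used as a readout of that pathway.

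The study asked which genes differ between the wing disc hinge and the rest of the disc while the disc regenerates after ionizing radiation (IR). Larvae came from 30A>G-trace/SM5 females crossed to w1118 males, and larvae carrying the G-trace lineage reporter were picked by their RFP and GFP. In G-trace, RFP marks cells in which the driver is active now and GFP marks those in which it was active at any earlier time. The 30A-GAL4 driver is active within the hinge, so cells dissociated from the discs were sorted into POS (RFP+GFP+, hinge) and NEG (RFP-GFP-, rest of the disc, chiefly pouch and notum). All groups carried the same reporter, and each group was sequenced in 2 libraries of poly-A RNA. They were -IR (no irradiation, discs taken 24 h after a mock treatment), IR+24h and IR+48h (taken 24 or 48 h after X-rays). There was no mock group at 48 h, and the IR+48h discs came from larvae of more than one age when irradiated, so in the IR+48h comparisons IR and larval age or development cannot be told apart.

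Libraries held 4211088 to 19940040 counts (median 14939250), and the shallowest was NEG -IR replicate 1. At these depths 3 counts, taken as the floor of detection, correspond to 0.150 to 0.712 CPM, the unit of counts scaled to a common library size. Markers were checked against the labels. Without IR, all 7 hinge genes checked were higher in POS and 5 passed the edgeR threshold, while all 7 pouch genes and all 5 notum genes were lower, 4 and 2 of them past it. Of 6 damage genes checked, 3 passed as higher at IR+24h in POS (egr, Ilp8 and Mmp1) and 3 in NEG (hid, Ilp8 and Mmp1). Ilp8 rose by 5.86 on the log2 scale in POS and 4.53 in NEG. Hemocyte markers summed to 62.9 to 293 CPM in the NEG libraries and 5.72 to 14.8 CPM in the POS libraries, and NimC1, eater and He were at 0 in some libraries. Fat body markers summed to 15.5 to 71.5 CPM over all libraries.

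The members lie in 2 tandem arrays and a set of scattered genes (BDGP6.54 annotation). All 11 delta genes sit on chromosome 3R between positions 12364776 and 12385624, a stretch of 20849 bases that is called the D cluster here. GstD10, GstD9 and GstD1 are on its minus strand and the other 8 on its plus strand. The E cluster holds 10 epsilon genes in 13198 bases on 2R from 18396638 to 18409835, in the order GstE10 and then GstE1 to GstE9. GstE11, GstE12, GstE13 and GstE14 lie elsewhere on 2R, with GstS1, GstT1 and GstT2, while the omega genes are on 3L, the zeta genes on 3R and GstT3 and GstT4 on X. GstE1 to GstE7, GstE9 and GstD2 to GstD8 are annotated with a single transcript of a single exon. Genes of one array are close in sequence, and the treatment of reads that match several genes is not given in the sources used here. Whether such reads were dropped or assigned to a neighbour is therefore uncertain. Whether counting used strand is not given either. This bears on genes whose exons overlap a gene on the other strand, which is 25.1% of the exon bases of GstT2 (with CG12926), 5.08% of GstE9 (with imd), 3.50% of GstO2 (with se), 2.41% of GstE1 (with GstE10) and less in GstE12, GstE10 and GstE13.

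In the disc, GST transcripts were dominated by a few genes. Per kilobase of exon and averaged over the 12 libraries, GstD1 was the highest at 1809 CPM per kb, followed by GstD3 at 287 and GstS1 at 248. GstD1 encodes the most studied delta enzyme and GstS1 the only sigma enzyme, which conjugates the lipid peroxidation product 4-hydroxynonenal. GstD1 and GstS1 together made up 62.2% to 68.9% of all GST counts, and the whole family made up 0.221% to 0.454% of the counts of a library. At the other end, GstE10 and GstE14 never exceeded 8 and 9 counts in a library and were too low to test, which left 33 members. GstE14 is known as noppera-bo, a gene for ecdysteroid synthesis in the prothoracic gland.

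At 24 h after IR, the members that rose past the threshold were genes of the D and E clusters and GstT1, and most genes of the D cluster did not pass in either population. In POS, 7 of the 33 tested members (21.2%) rose past the edgeR threshold and none fell, where 4.14% of all 10617 genes tested rose. They were GstD1, GstD3, GstD4, GstD5, GstE1, GstE6 and GstT1. In NEG, 8 members (24.2%) rose and none fell, where 1.89% of all genes rose, namely GstD1, GstD3, GstE1, GstE5, GstE6, GstE7, GstE8 and GstT1. GstD1, GstD3, GstE1, GstE6 and GstT1 were in both lists. The share of all called genes that were in both lists was not counted, so this overlap is not shown to be particular to GST genes. In bulk libraries of sorted cells, a larger share of expressing cells and more RNA per cell cannot be told apart.

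GstE6 changed most among the genes past the threshold. In NEG it was at 2.42 and 3.41 CPM without IR (10 and 47 counts), 45.8 and 51.3 CPM at IR+24h, and 25.8 and 18.6 CPM at IR+48h. In POS it was at 17.3 and 12.2 CPM without IR, 70.8 and 83.0 CPM at IR+24h, and 40.2 and 35.6 CPM at IR+48h. In each population the 3 time groups did not overlap, with IR+24h highest and -IR lowest. Lack of overlap is a weak mark with 2 libraries per group. In the comparisons where it was counted, 17.0% to 23.3% of all genes had it in a given direction. That share is not given here for IR against -IR. The increase at IR+24h was 15.9-fold in NEG (log2 3.99, SE 0.298, edgeR adjusted p = 1.02e-04) and 5.22-fold in POS (log2 2.38, SE 0.257, edgeR adjusted p = 6.92e-04).

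The other E cluster genes past the threshold were GstE1, which had more CPM than GstE6 in every NEG group, and GstE5, GstE7 and GstE8, which had less than GstE6 at IR+24h in both populations. GstE1, whose product acts on lipid peroxidation products, went from 21.5 and 15.9 CPM to 74.5 and 83.0 CPM in NEG at IR+24h, and from 25.9 and 12.7 to 52.1 and 56.6 CPM in POS. It rose 4.26-fold in NEG (log2 2.09, SE 0.335, edgeR adjusted p = 0.00725) and 2.83-fold in POS (log2 1.50, SE 0.324, edgeR adjusted p = 0.0210). GstE1 was the one member of the array that was lower in POS than in NEG at IR+24h without overlap of the groups. GstE5 went from 3.39 and 1.89 CPM to 13.0 and 15.1 CPM in NEG, a 5.62-fold rise (edgeR adjusted p = 0.0101), and from 9.55 and 6.51 to 15.8 and 21.8 CPM in POS, where the change did not pass (log2 1.23, SE 0.380, edgeR adjusted p = 0.0924). GstE8 went from 3.39 and 1.89 CPM to 11.5 and 9.95 CPM in NEG, 4.28-fold (edgeR adjusted p = 0.0269), and from 5.39 and 6.76 to 13.3 and 17.5 CPM in POS (log2 1.34, SE 0.389, edgeR adjusted p = 0.0733). None of these groups overlapped, which adds little to the POS changes that did not pass. GstE7 rested on 1 and 17 counts in the NEG -IR libraries (0.242 and 1.23 CPM), against 4.64 and 6.43 CPM in NEG IR+24h (log2 2.66, SE 0.607, edgeR adjusted p = 0.0459), so its fold is poorly set. In POS, GstE7 went from 2.53 and 2.30 CPM to 7.33 and 8.12 CPM (log2 1.68, SE 0.542, edgeR adjusted p = 0.108).

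Over the whole E cluster, all 9 tested genes had a log2 change above 0 in POS (median 1.34) and 8 of 9 in NEG (median 2.09), where 47.0% and 49.1% of all genes were above 0. GstE2 was the exception in NEG (log2 -0.31) and, with GstE4 and GstE9, was at 0 counts in at least 1 library. GstE3 was near the threshold in both populations, with a log2 change of 1.47 in POS (edgeR adjusted p = 0.0532) and 1.70 in NEG (edgeR adjusted p = 0.0633). Summed over the array, the level went from 33.7 ± 2.71 CPM (mean ± SD, n = 2) to 175 ± 8.80 CPM in NEG, and from 61.2 ± 11.8 to 195 ± 15.4 CPM in POS. No such shift was seen in the epsilon genes outside the array. GstE11, GstE12 and GstE13 had log2 changes between -0.23 and 0.26 in both populations.

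**Figure D1:**
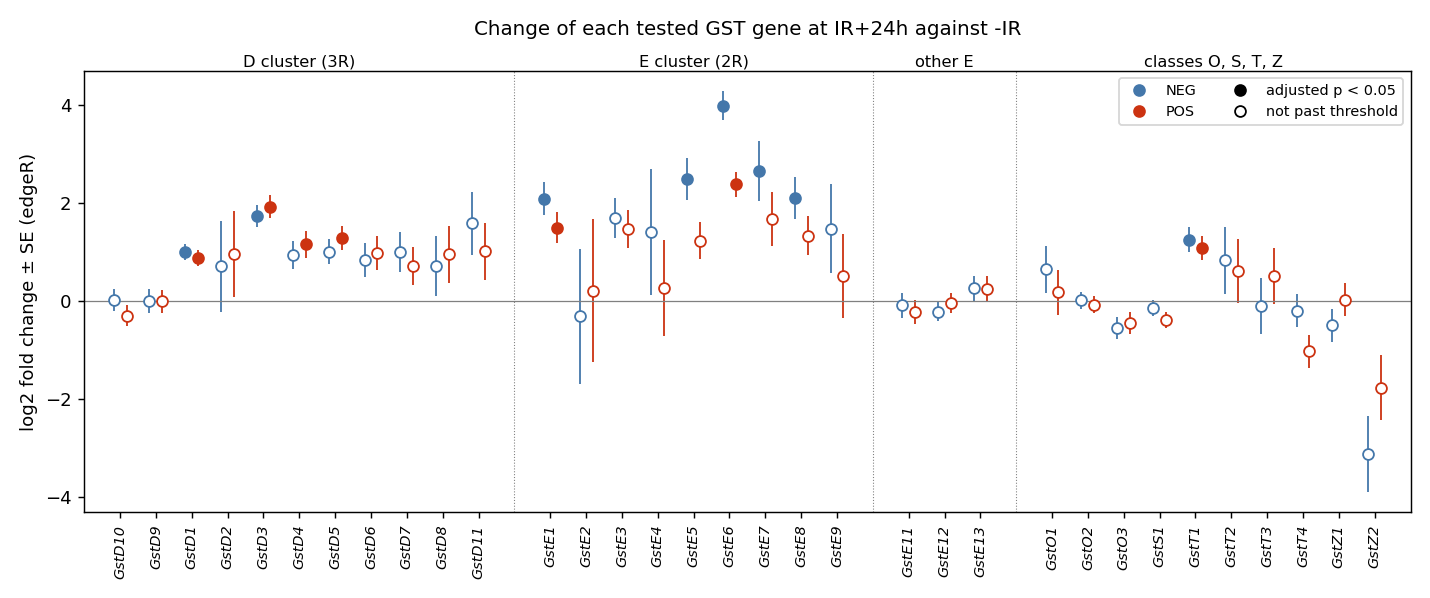
Log2 fold change ± SE (edgeR) of the 33 tested GST genes at IR+24h against -IR, in NEG (blue) and POS (red), grouped by array along the horizontal axis. Filled points passed an adjusted p of 0.05. The filled points lie in the D and E clusters except for GstT1, and GstE6 in NEG is the highest at 3.99.

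In the D cluster, GstD1 carried most of the counts and GstD3 the larger fold. GstD1 went from 1081 and 1119 CPM to 2169.7 and 2208 CPM in NEG at IR+24h, and from 1267 and 1059.9 to 1935 and 2322 CPM in POS. The irradiated and unirradiated libraries did not overlap, and the rise was 1.99-fold in NEG (log2 0.99, SE 0.164, edgeR adjusted p = 0.00799) and 1.83-fold in POS (log2 0.87, SE 0.163, edgeR adjusted p = 0.0102). GstD3 went from 100.2 and 78.6 CPM to 268 and 325 CPM in NEG, 3.33-fold (log2 1.74, SE 0.233, edgeR adjusted p = 0.00228), and from 128 and 86.3 to 357 and 456 CPM in POS, 3.80-fold (log2 1.93, SE 0.232, edgeR adjusted p = 9.95e-04). GstD3 is the immediate neighbour of GstD2, which stayed between 0.509 and 7.33 CPM in all libraries. Adjacent genes of the array thus differed widely in level.

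GstD4 and GstD5 rose past the threshold in POS. GstD4 went from 17.0 and 30.1 CPM to 52.0 and 53.0 CPM in POS (log2 1.15, SE 0.274, edgeR adjusted p = 0.0323), and from 13.1 and 15.4 to 28.8 and 26.1 CPM in NEG (log2 0.94, SE 0.282, edgeR adjusted p = 0.145). GstD5 went from 18.5 and 27.9 CPM to 59.1 and 54.4 CPM in POS (log2 1.29, SE 0.251, edgeR adjusted p = 0.0128), and from 16.9 and 16.2 to 34.5 and 32.0 CPM in NEG (log2 1.01, SE 0.257, edgeR adjusted p = 0.0802). For both genes the groups did not overlap in either population, which adds little to the NEG changes that did not pass.

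All 11 delta genes had a log2 change above 0 in NEG (median 0.94, GstD9 lowest at 0.00), and 9 of 11 were above 0 in POS (median 0.96). The values of the pair at the minus-strand end differed from those of their neighbours. GstD10 had log2 changes of 0.02 in NEG and -0.30 in POS, and GstD9, which lies next to GstD1 on the same strand, was within 0.01 of 0 in both. GstD9 had 95.8 and 97.1 CPM before and 102 and 90.7 CPM after IR in NEG, and 139 and 198 CPM before and 179 and 158 CPM after IR in POS. Its -IR and IR+24h libraries overlapped in both populations. Summed over the D cluster, the level went from 1431 ± 28.3 CPM to 2780.5 ± 41.1 CPM in NEG and from 1698 ± 59.8 to 3031 ± 286 CPM in POS (mean ± SD, n = 2).

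Of the 13 tested members outside the arrays, GstT1 rose in both populations. This theta gene went from 22.3 and 29.0 CPM to 58.9 and 64.6 CPM in NEG (log2 1.26, SE 0.248, edgeR adjusted p = 0.0222), and from 34.9 and 22.3 to 54.2 and 67.3 CPM in POS (log2 1.09, SE 0.244, edgeR adjusted p = 0.0246). Its neighbour GstT2, of which 25.1% of the exon bases overlap another gene, had log2 changes of 0.83 in NEG and 0.62 in POS, neither past the threshold. GstS1 went from 635 and 495 CPM to 501 and 529 CPM in NEG, and from 669 and 822 to 567 and 571 CPM in POS (log2 -0.39, edgeR adjusted p = 0.219). GstS1 therefore did not pass in either population. Its POS groups did not overlap, which is a weak mark with 2 libraries each. The lowest log2 changes were those of GstZ2, a zeta gene of the class that isomerises maleylacetoacetate in tyrosine breakdown, at -3.13 in NEG (11 and 20 counts against 2 and 4, edgeR adjusted p = 0.0668) and -1.77 in POS (edgeR adjusted p = 0.170). The omega genes, a class with dehydroascorbate reductase activity, had log2 changes between -0.55 and 0.65. The sum over the 14 members outside the arrays was 1044 ± 124 CPM before and 994 ± 18.2 CPM after IR in NEG, and 1212 ± 57.7 before and 1023 ± 15.2 CPM after IR in POS (mean ± SD, n = 2).

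**Figure D2:**
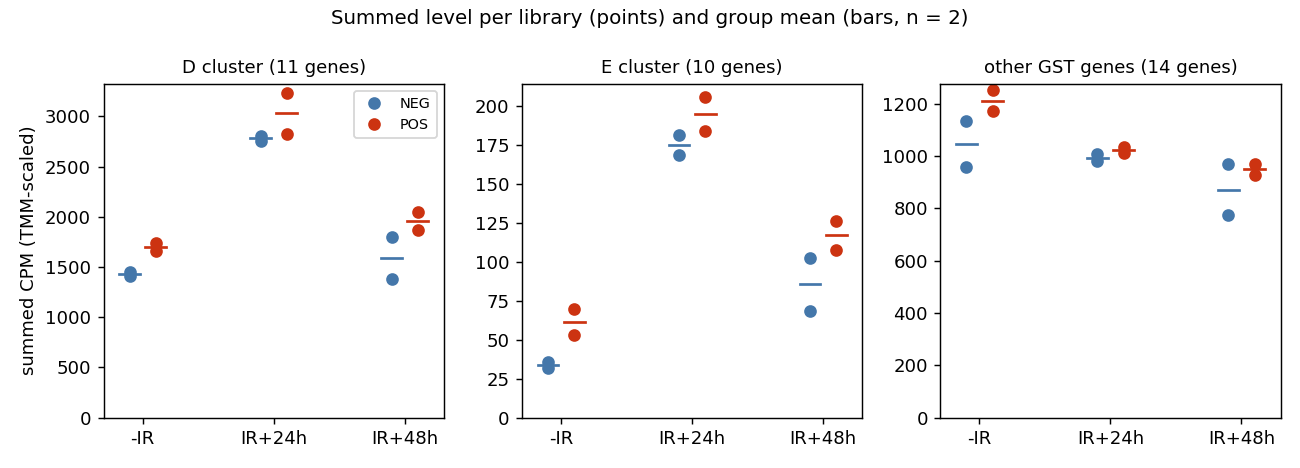
Summed CPM of the D cluster (11 genes), the E cluster (10 genes) and the other 14 GST genes in each library (points) and the mean of the 2 libraries of a group (bars), with NEG in blue and POS in red and each vertical axis starting at 0. The 2 arrays were highest at IR+24h in both populations, while the other genes stayed between 775 and 1253 CPM.

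The count of members past the threshold at IR+24h depended on the libraries. In POS it was 2 without POS IR+24h replicate 2, 3 without POS IR+24h replicate 1, 11 without either NEG -IR library, and 2 when only the 4 libraries compared were fitted; in NEG it was 2 without NEG IR+24h replicate 2, 5 without NEG IR+24h replicate 1 and 3 when only the libraries compared were fitted. GstD3 and GstE6 passed in both populations in each of the 19 alternative settings tried. GstE7 in NEG passed in 7 of them, and GstD4 in POS and GstE8 in NEG in 10. Fat body markers, a tissue rich in detoxifying enzymes, had summed levels of 30.5 and 71.5 CPM before and 35.4 and 27.4 CPM after IR in NEG. In POS these were 54.3 and 26.9 CPM before and 20.7 and 17.7 CPM after IR. Hemocyte markers summed to 62.9 and 143 CPM before and 247 and 76.9 CPM after IR in NEG, and to at most 14.8 CPM in any POS library. Tracheal markers, all 5 detected in every library, summed to 978 and 662 CPM before and 945 and 1199.6 CPM after IR in NEG. In POS they summed to 1172 and 974 CPM before and 1138 and 1543 CPM after IR, and serp passed as higher. Muscle precursor markers summed to 469 and 1365 CPM before and 621 and 379 CPM after IR in NEG, where Him passed as lower, and to 62.1 and 109 CPM before and 138 and 125 CPM after IR in POS. The part of these cells in the result was not tested.

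**Figure D3:**
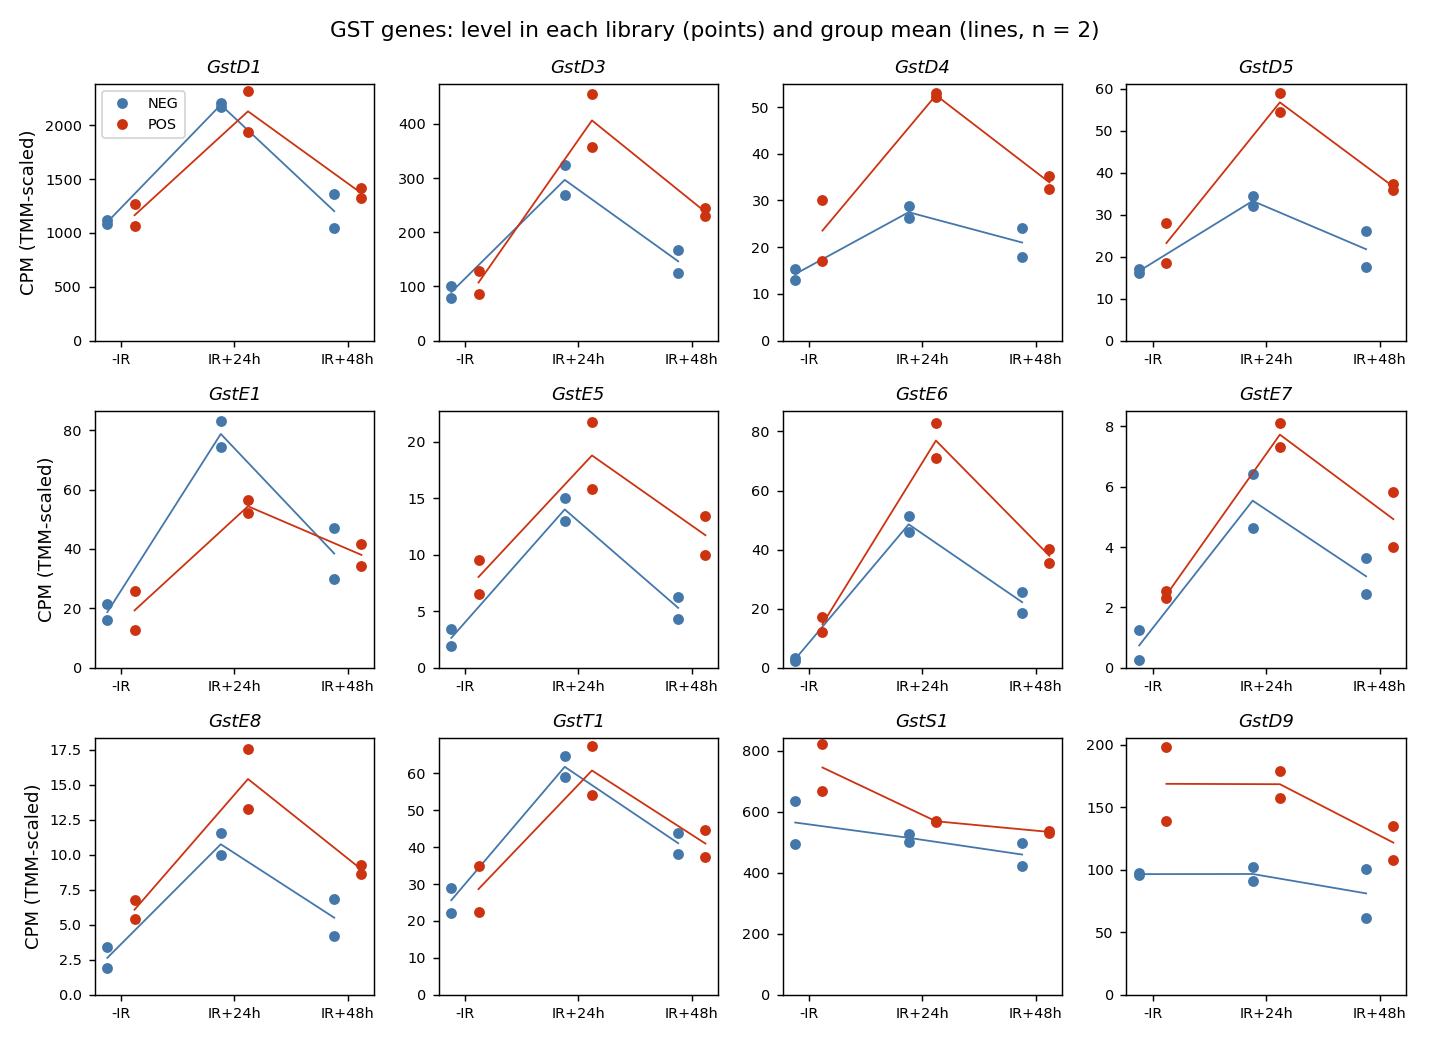
CPM of 12 GST genes in each library (points), with lines through the mean of the 2 libraries of each group, for NEG (blue) and POS (red) at -IR, IR+24h and IR+48h, each vertical axis starting at 0. All 10 genes past the threshold in some comparison were highest at IR+24h, and GstS1 and GstD9 are shown as members without such a rise.

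At 48 h, fewer members were past the threshold against -IR. In POS, GstD3 and GstE6 were higher (2 of 33 members, where 1.27% of all genes rose), GstD3 with a log2 change of 1.15 (SE 0.227, edgeR adjusted p = 0.0327) and GstE6 with 1.36 (SE 0.250, edgeR adjusted p = 0.0261). In NEG, GstE6 alone was higher, 7.25-fold (log2 2.86, SE 0.292, edgeR adjusted p = 0.00121), where 0.113% of all genes rose. By then GstD3 had 168 and 125 CPM in NEG and 245 and 229 CPM in POS, and GstD1 had 1360.1 and 1042 CPM in NEG and 1415 and 1319.6 CPM in POS. GstD1 at IR+48h overlapped the -IR libraries in NEG and lay above them in POS. GstE1 had 47.1 and 29.8 CPM in NEG and 41.8 and 34.2 CPM in POS, and GstE5 had 6.27 and 4.33 CPM in NEG and 13.5 and 10.01 CPM in POS. Both were still above their -IR libraries without overlap, and neither passed the test. Muscle precursor markers summed to 188 and 202 CPM in POS at this time, with twi and Act57B called higher than without IR, and their part in the result was not tested. The POS count was 4 without POS -IR replicate 1, 1 without NEG IR+24h replicate 1, and 0 without any one of POS -IR replicate 2, NEG IR+24h replicate 2 and the POS IR+24h and IR+48h libraries. The NEG call of GstE6 was lost with limma voom, the tool the study used, and when only the libraries compared were fitted, and the POS calls were lost in the latter.

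Between the time points most members had lower values at IR+48h, and no gene passed. From IR+24h to IR+48h, 28 of 33 members in POS and 27 of 33 in NEG had a log2 change below 0, where 5368 and 5443 of all 10617 genes did. The medians of the members were -0.47 and -0.39 (without NEG IR+48h replicate 2, 20 of 33 in NEG were below 0 with a median of -0.14). However, edgeR called no member and no gene of the whole table (0.00% in both). At an unadjusted p under 0.05, 6 members were lower in POS, where 3.57% of all genes were, and 8 were lower in NEG, where 4.51% were. These small counts rested on single libraries. In either direction they were 6 in POS, 3 without POS IR+24h or IR+48h replicate 2 and 10 without POS -IR replicate 1, and 9 in NEG, 5 without either NEG IR+24h library and 4 without NEG IR+48h replicate 2. The lowest p were those of GstE6 in POS (log2 -1.02, SE 0.244, edgeR adjusted p = 0.319) and GstD1 in NEG (log2 -0.87, SE 0.163, edgeR adjusted p = 0.142). In POS, 22 of 33 members were lower at IR+48h without overlap of the groups (23.3% of all genes), and in NEG 16 were (22.4%). With DESeq2, GstD1 and GstE6 passed as lower in POS, and GstD1, GstD3, GstE5 and GstE6 in NEG. GstZ2 moved the other way, from 10 and 15 counts to 41 and 29 in POS and from 2 and 4 to 13 and 11 in NEG (log2 1.15 and 1.67, neither past the threshold).

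Without IR, the array genes mostly had higher values in POS than in NEG, and 1 of 33 members passed the test, where 0.914% of all genes did in that direction. That gene was GstE6, 4.81-fold higher in POS (log2 2.27, SE 0.292, edgeR adjusted p = 0.00213), from the -IR values above. Across the D cluster 10 of 11 genes had a log2 difference above 0 (median 0.79) and across the E cluster 8 of 9 (median 1.28), where 51.2% of all genes were above 0 with a median of 0.01. Groups did not overlap and were higher in POS for 16 of 33 members (17.0% of all genes), and lower for GstZ1 and GstE12 (17.1% of all genes). GstD10 had 83.7 and 96.2 CPM in NEG and 137 and 199 CPM in POS (log2 0.90, SE 0.221, edgeR adjusted p = 0.0571), and GstE5, from the values above, had a log2 difference of 1.69 (SE 0.425, edgeR adjusted p = 0.0606). Both are just outside the threshold. GstD1, the most abundant member, had a log2 difference of 0.08 and overlapping groups.

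The GstE6 difference was lost with limma voom and when only the 4 libraries compared were fitted. The count was 3 without NEG -IR replicate 1, the shallowest library, and 6 without POS -IR replicate 1, among them GstE12 as lower in POS. Other cell classes also differed between these groups. Muscle precursor markers summed to 469 and 1365 CPM in NEG and 62.1 and 109 CPM in POS, with 4 of 5 called lower, hemocyte markers to 62.9 and 143 CPM against 14.8 and 9.62 CPM, with 2 of 6 called lower, and tracheal markers to 978 and 662 CPM against 1172 and 974 CPM, with Gasp called higher. Their part in these differences was not tested. Scaling by library size alone moved the median of all genes from 0.01 to 0.12 here, and GstD10 passed as well.

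After IR no member passed between POS and NEG. At IR+24h, 0 of 33 members were called by edgeR (0.509% of all genes in either direction), 7 were higher at an unadjusted p under 0.05 (3.74% of all genes) and 1 was lower (3.88%), and DESeq2 and limma voom called 0. At IR+48h, edgeR called 0 (0.330% of all genes), with 8 higher at an unadjusted p under 0.05 (2.87% of all genes) and 1 lower (3.38%), and DESeq2 and limma voom called 0. The 8 members at an unadjusted p under 0.05 at IR+24h became 5 without either NEG IR+24h library or POS IR+24h replicate 2 and 13 without POS -IR replicate 1, and the 9 at IR+48h became 1 without NEG IR+48h replicate 2 and 3 without POS IR+48h replicate 1. When only the 4 IR+24h libraries were fitted, 7 of 32 members passed, where 501 of all 9390 genes in that fit did. These were GstD4, GstD5, GstD6, GstD9, GstD10 and GstE6 as higher in POS and GstE1 as lower. GstD4 and GstD5 had log2 differences of 0.93 and 0.77 at IR+24h and 0.69 and 0.75 at IR+48h, with every POS library above every NEG library of that time. GstE6 had log2 differences of 0.66 at IR+24h and 0.77 at IR+48h, against 2.27 without IR.

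**Figure D4:**
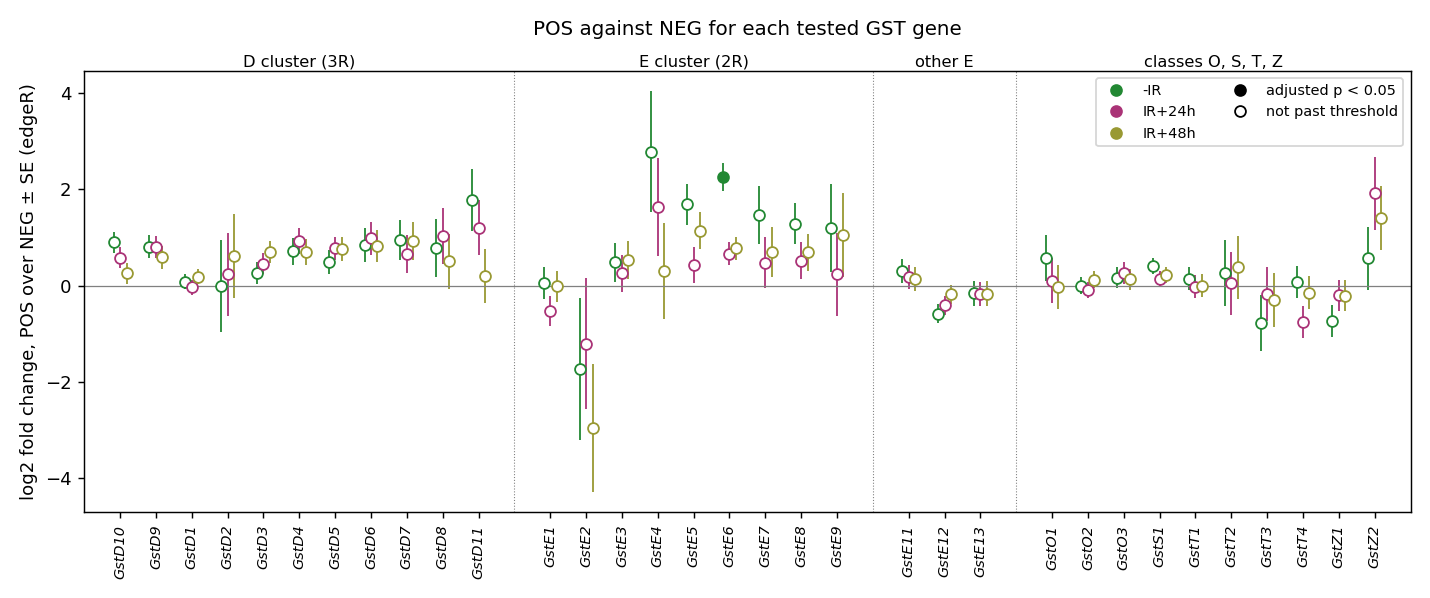
Log2 fold change ± SE (edgeR) of POS over NEG for the 33 tested GST genes at -IR (green), IR+24h (purple) and IR+48h (olive). The one filled point, past an adjusted p of 0.05, is GstE6 at -IR with 2.27, and 10 of 11 D cluster genes lie above 0 at -IR.

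Whether the IR change itself differed between POS and NEG was tested as the POS change minus the NEG change. No member passed at IR+24h or at IR+48h, where 0.00% and 0.0188% of all genes did. At an unadjusted p under 0.05 edgeR gave 2 members at IR+24h, GstE5 and GstE6, both with the smaller change in POS (1.49% of all genes were in that direction), and GstE6 alone at IR+48h (1.37%); DESeq2 and limma voom called 0 at either time. Leaving out 1 library gave 1 to 4 such members at IR+24h, most without NEG -IR replicate 2, and 1 to 5 at IR+48h, most without the same library. For GstE6 the difference was -1.60 on the log2 scale at IR+24h (SE 0.377, edgeR adjusted p = 0.911) and -1.50 at IR+48h (SE 0.379, edgeR adjusted p = 0.823). It was below 0 in 16 of 16 sets of 4 single libraries at each time, but these sets reuse the same libraries and are not independent. The GstE6 difference passed at IR+24h when no filter on low counts was applied (edgeR adjusted p = 0.0351). Both differences share the -IR libraries, in which NEG held 10 and 47 counts. The calls of GstD4 and GstD5 in POS and of GstE5, GstE7 and GstE8 in NEG are thus not shown to be different responses.

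Some other genes on lists of glutathione, redox and detoxification genes also changed at IR+24h. These lists were chosen with earlier results of these data known, so their counts are descriptive and give no independent support. Detoxification genes were 15 of those tested and gave 3 of the rises in each population. Of 46 tested genes on these lists, 10 rose and 2 fell in POS at IR+24h, and 7 rose and none fell in NEG, against the 4.14% and 1.89% of all genes that rose and the 1.19% that fell in POS. The median log2 change over the 46 genes was 0.20 in POS and 0.04 in NEG. Gclc, the catalytic subunit of the enzyme that sets the rate of glutathione synthesis, went from 37.0 and 39.2 CPM to 124 and 102 CPM in NEG (log2 1.57, SE 0.203, edgeR adjusted p = 0.00195), and from 33.9 and 35.4 to 107 and 113 CPM in POS (log2 1.67, SE 0.201, edgeR adjusted p = 9.95e-04). Its modifier subunit Gclm had log2 changes of -0.02 in NEG and 0.12 in POS. The 2 subunits thus had unlike values in the same libraries.

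Among the regulators, cnc, which encodes CncC, had log2 changes of 0.29 in POS and 0.15 in NEG, Keap1 of 0.67 and -0.15, and their partner maf-S of -0.38 and 0.17, with no call (edgeR adjusted p from 0.371 to 0.916). These are transcript levels and do not measure the factor's activity. Men, the NADP-dependent malic enzyme, rose by a log2 of 2.23 in POS and 1.32 in NEG, and MRP, a transporter that exports glutathione conjugates, by 1.66 and 1.52. The glucuronosyltransferase family gene Ugt86Di rose by 1.99 and 2.35, the peroxiredoxin gene Jafrac1 by 1.08 and 1.35, and ref(2)P, the fly p62 autophagy adaptor, by 1.53 and 1.50. All of these passed in both populations. The mitochondrial peroxiredoxin gene Prx3 passed in POS (log2 0.76, edgeR adjusted p = 0.0194) and had a log2 change of 0.10 in NEG. The 2 genes that fell in POS were Cat, which encodes catalase (log2 -0.81, edgeR adjusted p = 0.0267), and Sod3, an extracellular superoxide dismutase (log2 -0.89, edgeR adjusted p = 0.0378); they were named after their values were seen. In NEG they had log2 changes of -0.68 and -0.65 and did not pass. The 4 other genes with a GST fold or membrane GST activity, Mgstl, se, gfzf and eEF1gamma, had no call at IR+24h.

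**Figure D5:**
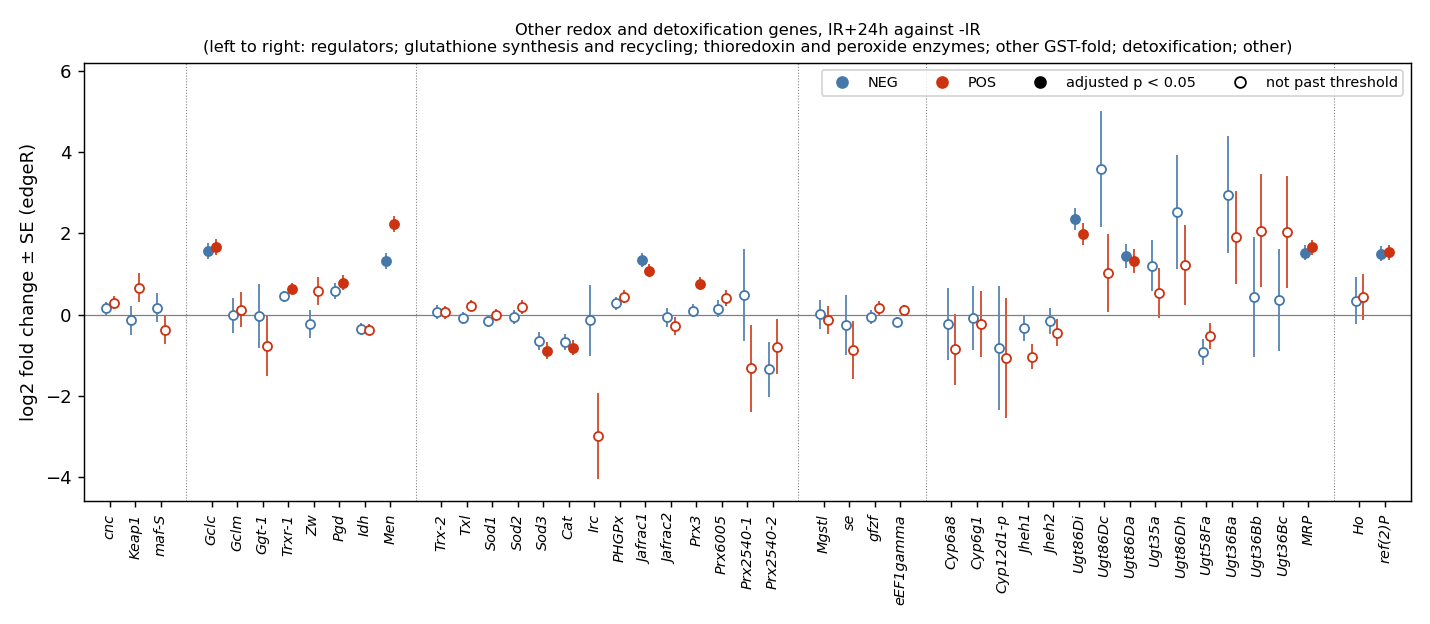
Log2 fold change ± SE (edgeR) at IR+24h against -IR of the 46 tested genes of the redox and detoxification lists, in NEG (blue) and POS (red), ordered by list from regulators at the left to detoxification and other genes at the right. Filled points passed an adjusted p of 0.05; Gclc, Men, Jafrac1, Ugt86Di, Ugt86Da, MRP and ref(2)P are filled in both populations, and the regulators in neither.

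At IR+48h, 5 of the 46 tested genes of the lists were higher in POS (Gclc, Men, Jafrac1, MRP and ref(2)P), where 1.27% of all genes rose. None was called in NEG, where only 0.113% of all genes rose. At an unadjusted edgeR p under 0.05, the NEG log2 changes included 0.53 for Gclc and 0.74 for Men. Without IR, no gene of the lists was higher in POS and 3 were lower, Men, eEF1gamma and Ugt58Fa (1.76% of all genes).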

How the data were processed

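The authors removed adapters and leading bases with BBDuk, then aligned and counted reads with STAR 2.6.0a (BDGP6.22, Ensembl release 97). They deposited raw counts per gene for 12 libraries, whose totals differ (4211088 to 19940040). One further column of the table matches no sample and was not used. The ERCC spike-ins have 0 rows. The replicates are separate biological samples, each pooled from several crosses, dissociations and sorts.

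Genes were tested with edgeR 4.0.16 in R 4.3.3 (TMM scaling, filterByExpr, quasi-likelihood F tests, 6 group means over all 12 libraries, biological coefficient of variation 0.303). Two-sided p-values were adjusted by Benjamini and Hochberg's method over the 10617 genes kept, with 0.05 as the threshold. The study's own tool, limma voom (limma 3.58.1), was an alternative, with DESeq2 1.42.0, library size alone, no filter, a fit of only the groups compared, each library left out, and a block for replicate number. CPM used the TMM-scaled library sizes, and the 3-count floor covers counting error only. Symbols were matched to BDGP6.54 (Ensembl release 115), which found all 35 members and 16663 genes in all. Python 3.11.15, numpy 2.4.6, pandas 2.3.3 and matplotlib 3.10.9 were used for tables and plots. The steps were tested on simulated data with changes placed only in well-counted genes, which does not cover members at a few counts.

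The members were taken by the name rule alone, while all other lists were chosen with earlier results of these data known. Values in every library are given for members past the threshold in any comparison and the 3 highest per kb, and values for cnc, Keap1, maf-S, Gclc, Gclm and the 6 other listed genes with the smallest adjusted p at IR+24h. Per-library values of GstD9, GstD10 and GstZ2 and the genes Cat and Sod3 were added after their values were seen. No sequence is printed, since none was used here.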

Additional observations from a re-analysis of the deposited data

How the results depend on the processing

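Of 19 calls of single GST genes, 4 held in all 19 settings and none changed direction. The counts of members called were as follows, with the count as reported in brackets. For POS against NEG without IR (1 as reported) the count was 0 with limma voom, 5 with DESeq2, 2 with library size alone, 4 without a filter and 0 with only the groups compared. At IR+24h (0) it was 2 without a filter and 7 with only the groups compared, and at IR+48h (0) it was 1 without a filter. For IR+24h against -IR in POS (7) it was 10 with limma voom, 12 with DESeq2 (GstT4 lower), 9 without a filter (GstT4 lower) and 2 with only the groups compared, and in NEG (8) it was 6 with limma voom, 11 with DESeq2 (GstZ2 lower), 10 without a filter and 3 with only the groups compared. For IR+48h against -IR it was 3 with DESeq2 (GstD10 lower), 4 without a filter (GstD10 lower) and 0 with only the groups compared in POS (2), and in NEG (1) it was 0 with limma voom, 3 without a filter and 0 with only the groups compared. For IR+48h against IR+24h it was 2 with DESeq2, 2 without a filter and 5 with only the groups compared in POS (0), and 4 with DESeq2 and 4 without a filter in NEG (0). The difference of changes at IR+24h gave 1 (GstE6) without a filter. With only the groups compared, 501 of 9390 genes were called for POS against NEG at IR+24h (54 of 10617 as reported). For IR+48h against IR+24h in POS, 380 of 9519 genes were called in such a fit (0 of 10617 as reported). Fits to the groups compared used fewer samples, and the causes of these differences were not tested.

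Leaving out 1 library gave 1 to 6 members for POS against NEG without IR, 2 to 11 for IR+24h against -IR in POS and 2 to 11 in NEG, 0 to 4 for IR+48h against -IR in POS, 1 in each case in NEG, and 0 in each case for the other 6 comparisons.

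The replicate numbers in the labels were not taken as pairs. Over 10617 genes, same-numbered POS and NEG libraries deviated together at -IR (r = 0.471) and little so at IR+24h (0.110) and IR+48h (0.162). Those of -IR and IR+24h correlated at -0.216 in POS and -0.135 in NEG. The tests of POS against NEG treated these libraries as independent. The block for replicate number held the same effect at all times, so pairs within a time were not fitted. With the replicate number as a block, 7 members were called at IR+24h in POS and 7 in NEG, where GstE7 was lost, 1 for POS against NEG without IR, 2 and 1 at IR+48h against -IR in POS and NEG, and 0 otherwise. Crossing the IR+24h numbers, chosen after seeing the data, gave 3 members for POS against NEG without IR, 9 for IR+24h and 3 for IR+48h against -IR in POS, and 2 for IR+48h against IR+24h in NEG. Members at a few counts, such as GstE2, GstE4, GstE9 and GstZ2, are limited by depth.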
